A study of Mus musculus with 3 samples.

Results

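Long intergenic noncoding RNAs, or lincRNAs, are transcripts of genes that lie between protein-coding genes and carry no annotated coding sequence. The set described here holds the 101 genes whose transcripts are all annotated as lincRNA and whose level reached at least 1 TPM, a length-scaled share of all transcripts, in each of 3 libraries. They are 101 of 5844 lincRNA genes and of 55536 gene entries, and 9930 genes of all kinds reached the same minimum and are called detected. Each library holds polyadenylated RNA of C57BL/6J mouse macrophages, derived in culture from bone marrow, after 480 minutes with a stimulus at 100 ng/mL. The sample descriptions name the stimulus as Lipid A and the treatment fields as lipoprotein A, and this was not resolved. All 3 libraries form 1 group of biological replicates from separate biosamples that carry 1 donor label, so any spread between them may in part be technical. No untreated macrophages are among the samples, so every value below is a level after stimulation and none is a response to it.

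LincRNAs are transcribed and spliced much like messenger RNAs, but usually at lower levels and in fewer cell types. Some stay in the nucleus and scaffold nuclear bodies or coat a chromosome, some act on the gene next door, some are the precursors of microRNAs or small nucleolar RNAs, and a few encode short peptides that the annotation had missed. In macrophages several are known for their place in Toll-like receptor signalling, among them the precursor of miR-155 and lincRNA-Cox2.

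Depth differed: replicate 1 had 26589042 expected counts, replicate 2 had 34344922 and replicate 3 had 48356527. For a transcript with an effective length of 1000 bases, 1 count was worth 0.0576, 0.0424 and 0.0312 TPM, so a gene at the 1 TPM minimum rests on few counts when it is short. All 8 macrophage markers were detected, with summed levels of 21181, 16539 and 17793 TPM in replicates 1, 2 and 3. Most of each sum was Lyz2, at 15717, 10767 and 12262 TPM, and 2 of the 8 genes were highest in replicate 2. Neutrophil markers were uneven. Of 11 such genes 3 were detected, 10 were highest in replicate 2 (Cxcr2 was equal in replicates 2 and 3, at 0.03 TPM), and they summed to 28.3, 429 and 25.4 TPM in replicates 1, 2 and 3. Markers of red cells and platelets summed to 229, 870.2 and 224 TPM, nearly all of it Pf4, while none of 4 T cell, 4 B cell, 3 NK cell or 4 fibroblast markers was detected. Elane and Mpo, which define early neutrophils, were at 0 in replicates 1 and 3 and at 0.37 and 0.56 TPM in replicate 2. Dendritic cell markers summed to 4.44, 18.7 and 5.48 TPM and osteoclast markers to 81.3, 212 and 107 TPM. Both sums were highest in replicate 2, as were 3 of 4 genes of each list, while Xcr1 and Ctsk were highest in replicate 3. Reads of the ribosomal RNA gene CT010467.1 took 2.78%, 1.83% and 6.66% of the counts. In bulk RNA, fewer cells of a type and less RNA per cell cannot be told apart.

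Most lincRNAs were scarce and a few were abundant. Of 5844 lincRNA genes 4912 had no count in any library and 932 had at least 1. The median of mean TPM over the 101 was 4.18, beside 13.96 over all detected genes. By mean level, 59 lay under 5 TPM, 28 between 5 and 20 TPM, 9 between 20 and 100 TPM, 3 between 100 and 1000 TPM, and AW112010 and Gm10076 above 1000 TPM. Together the 101 summed to 6689, 5300.5 and 6771 TPM, which is 0.625% ± 0.0826 of library TPM (SD, n = 3). AW112010 alone made up 55.4% ± 8.93 of that sum, and the 3 most abundant made up 82.9% ± 0.897. The members just inside the minimum were Gm4316, 5430416N02Rik and Gm13431, with lowest values of 1, 1.01 and 1.04 TPM. Just outside it lay Gm48604, AC102496.1 and Gm38399, with lowest values of 0.97, 0.95 and 0.94 TPM, each in replicate 2.

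**Figure D1:**
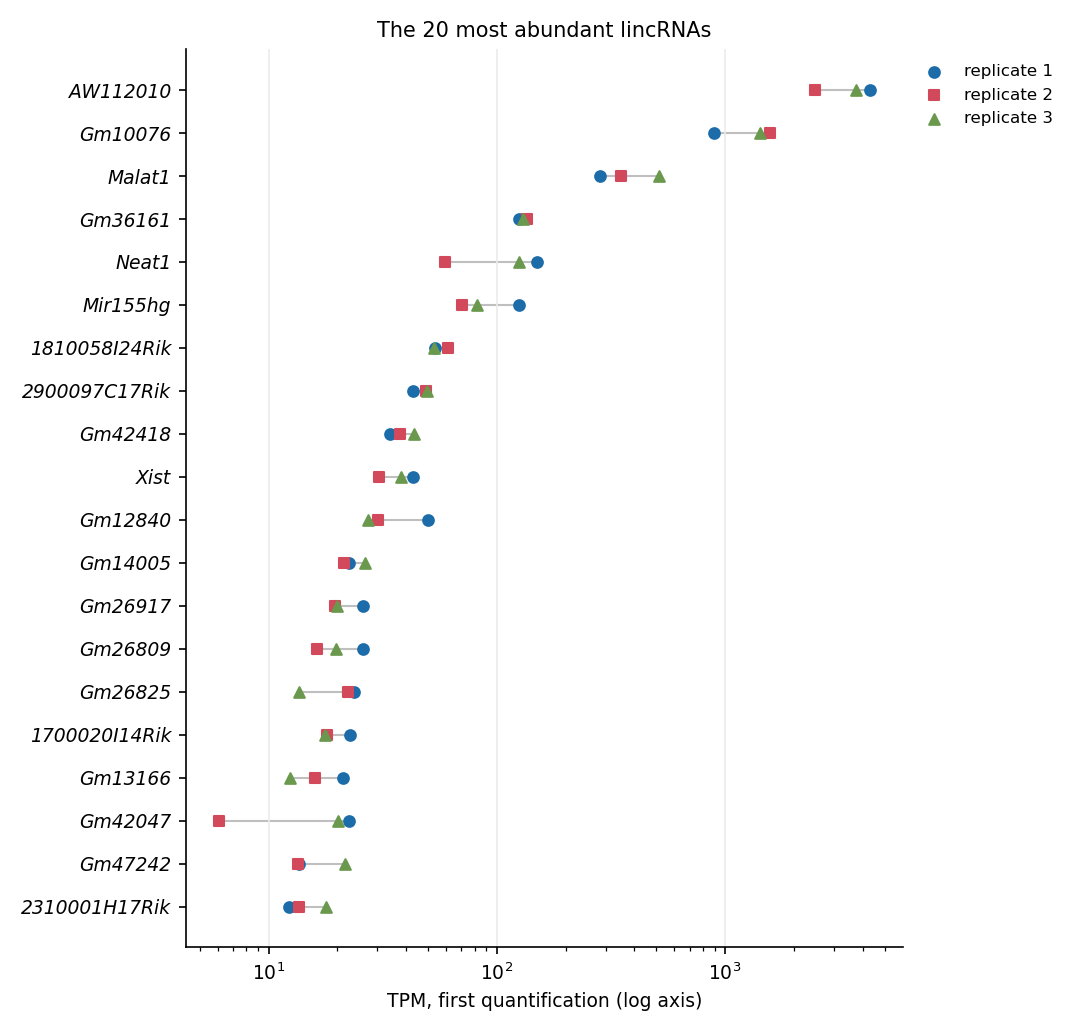
TPM of the 20 most abundant lincRNAs in each of the 3 libraries, first quantification, on a log axis. Each point is 1 library and the grey line spans the 3. AW112010 lies at 2468 TPM or more in every library, and Neat1 and Gm42047 show replicate 2 (squares) apart from the others.

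AW112010 was the most abundant lincRNA. It lies at chr19:11047612-11055808 on mm10, on the minus strand, and its leading transcript has 3 exons and 770 bases. In activated macrophages it is known to be translated from a start codon other than AUG into a peptide needed for defence of mucosal surfaces, although the annotation lists it as noncoding. It stood at 4309, 2468 and 3740.2 TPM in replicates 1, 2 and 3. All 3 libraries were high, and replicate 2 was the lowest. The mean was 3506 ± 943 TPM (SD, n = 3), and the second quantification gave 2658 ± 554 TPM. Of the 5 motifs searched in its promoter, 1 was found. RefSeq places the start of AW112010 at the same base as the leading transcript. In the RefSeq window from 250 bases before to 50 after that start (GRCm38.p6, chr19:11050517-11050816, minus strand), the letters that match the NF-kB consensus are in capitals, at position -70 from the start:

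AW112010 promoter: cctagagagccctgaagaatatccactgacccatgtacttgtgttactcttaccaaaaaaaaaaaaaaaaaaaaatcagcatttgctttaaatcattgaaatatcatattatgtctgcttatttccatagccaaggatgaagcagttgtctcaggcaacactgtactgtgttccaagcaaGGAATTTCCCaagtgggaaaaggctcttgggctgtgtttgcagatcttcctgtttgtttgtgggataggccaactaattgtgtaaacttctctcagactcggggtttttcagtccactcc

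RefSeq windows were found for 53 of the 101 lincRNAs, 61 windows in all. Motifs were searched on both strands. The NF-kB consensus was in 4 of the 61 windows, 6.56%, and in 6.93% of all 32851 windows in the table. TATAAA was in 5 of 61, 8.2%, beside 13.6% of all windows. The AP-1 site TGANTCA was in 5 of 61, 8.2%, beside 7.81%. The ETS core AGGAAGT was in 4 of 61, 6.56%, beside 9.35%, and the core of the interferon-stimulated response element was in 4 of 61, 6.56%, beside 3.44%. These shares differ by few windows, and a match is a run of letters, not a measured binding site.

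RNAs known mainly for work in the nucleus came next. Of 8 genes on the list of nuclear lncRNAs, 4 were in the set, 2 were detected but have transcripts of another type (Tug1 and Firre), and 2 were under the minimum (Kcnq1ot1 and Meg3). Malat1, an RNA of nuclear speckles that ends in a triple helix in place of an ordinary poly(A) tail (chr19:5795690-5802672), stood at 282, 349.7 and 512 TPM. It was highest in replicate 3. Neat1, the scaffold of paraspeckles (chr19:5824708-5845478), stood at 149.7, 59.1 and 125 TPM. Replicate 2 was less than 50% of either other library, and the second quantification had the same order at 107, 55.4 and 104 TPM. Xist, the RNA that coats the inactive X chromosome, stood at 42.8, 30.4 and 38.1 TPM. The gene listed as 2900097C17Rik, which RefSeq calls Norad, is on this list although it is known mainly for holding Pumilio proteins in the cytoplasm. It stood at 43.0, 49.0 and 49.3 TPM and was lowest in replicate 1. Malat1 and Neat1 lie near each other on the same strand of chromosome 19, and their order over the libraries differed: Malat1 was lowest in replicate 1 and Neat1 in replicate 2.

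The share of each gene's TPM on its transcripts told the Neat1 forms apart. The short form Neat1-202, of 3004 bases, held 94.9% ± 0.644 (SD, n = 3), and the long form Neat1-201, of 20771 bases, which is not polyadenylated, held 3.24% ± 0.183. These libraries were made from polyadenylated RNA, so the share bears on polyadenylated Neat1. The second quantification gave 94.9% ± 0.67 and 3.00% ± 0.223. For Malat1, the 6983-base transcript held 61.7% ± 3.55 and a 485-base transcript, Malat1-203, held 34.1% ± 4.68. AW112010-201 held 93.5% ± 1.42 of AW112010. Of the 54 lincRNAs with more than 1 transcript, 35 kept the same leading transcript in all 3 libraries of both quantifications. Of the others the 5 most abundant were Gm7160, 1110002J07Rik, Dubr, Gm14461 and 5031425E22Rik. In Dubr the leading transcript was Dubr-204 in replicates 1 and 3, at 47.6% and 66.8%, and Dubr-202 in replicate 2, at 42.4%. In the second quantification Dubr-204 led in all 3 libraries, and in replicate 2 it held 42.4% beside 37.1% for Dubr-202.

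MicroRNA precursors form another group, and their mature products show why these lincRNAs matter beyond their own level. Hairpins that RefSeq (GRCm38.p6) places on the same strand were inside 5 of the 101 genes: Mir155hg, Mir142hg, E130102H24Rik, Snhg20 and 2900076A07Rik. They hold 9 mature microRNAs with 9 different seeds, so no pair among them shares a seed. The 4 arms of miR-155 and miR-142a, the best known of them in blood cells, and miR-101a-3p are shown with the seed, bases 2 to 8, in capitals:

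miR-155-5p, chr16:84714143-84714165, plus strand: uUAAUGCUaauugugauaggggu

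miR-155-3p, chr16:84714182-84714202, plus strand: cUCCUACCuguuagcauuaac

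miR-142a-5p, chr11:87756867-87756887, plus strand: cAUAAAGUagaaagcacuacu

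miR-142a-3p, chr11:87756903-87756925, plus strand: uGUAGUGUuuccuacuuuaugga

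miR-101a-3p, chr4:101346957-101346977, minus strand: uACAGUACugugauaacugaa

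The RNA measured is the host transcript, not the mature microRNA. The miR-155 and miR-101a hairpins lie in an exon of the host's leading transcript, and those of miR-142a, miR-6516 and miR-1839 do not. Mir155hg (chr16:84703167-84715245), whose microRNA tunes inflammatory signalling, stood at 125, 70.2 and 82.3 TPM, highest in replicate 1. The second quantification gave the same order at 107, 77.1 and 81.9 TPM. E130102H24Rik stood at 15.3, 5.7 and 14.6 TPM, with replicate 2 low. Mir142hg (chr11:87755577-87757270) stood at 10.4, 2.33 and 11.0 TPM, again with replicate 2 low, but these values rest on 9, 2 and 14 counts over a 269-base transcript with an effective length of 49.7 bases in replicate 1. The second quantification placed it at 85.5, 31.0 and 51.7 TPM from 202, 67 and 181 estimated counts, so its level is known only within wide limits. Of 14 genes on the list of microRNA hosts, these 2 Mir genes were in the set, 3 were detected but have transcripts of another type (Mir22hg, Mir99ahg and Dleu2) and 9 were under the minimum.

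Precursors of small nucleolar RNAs, which guide modification of ribosomal RNA, were represented by 4 genes. The list held 17 host genes found in the tables, of which 4 were in the set, 8 were detected with other transcript types and 5 were under the minimum. Snhg6, which holds Snord87, stood at 13.3, 13.0 and 14.6 TPM. Snhg20 stood at 3.58, 3.76 and 4.44 TPM. Snhg12, which holds Snora16a, Snora44, Snora61 and Snord99, stood at 2.16, 3.44 and 2.91 TPM from 21, 31 and 47 counts. The other listed host in the set, Epb41l4aos, stood at 4.79, 5.22 and 6.5 TPM from 13, 13 and 33 counts. Snhg6 was lowest in replicate 2 and the other 3 listed hosts in replicate 1.

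LincRNAs with a described role in innate immune cells ranged from the highest level in the set to near the minimum. Of 18 genes on that list, 5 were in the set, 4 were detected with other transcript types and 9 were under the minimum. Beside AW112010 and Mir155hg they were Gm14005, Lncpint and Ptgs2os2. Gm14005 (chr2:128178319-128502765), which RefSeq calls Morrbid and which controls the lifespan of short-lived myeloid cells through its neighbour Bcl2l11, stood at 22.5, 21.3 and 26.4 TPM. That is close to Bcl2l11 itself, which lies 15772 bases away and stood at 22.1, 16.0 and 24 TPM. Ptgs2os2, known as lincRNA-Cox2, a regulator of inflammatory genes, stood at 1.71, 2.33 and 1.41 TPM. Ptgs2, the prostaglandin synthase gene 50816 bases away, stood at 177, 169.8 and 95.8 TPM. Both were lowest in replicate 3. Lncpint, an RNA induced by p53, stood at 1.67, 1.89 and 2.68 TPM, and at 3.9, 4.0 and 5.66 TPM in the second quantification. Mirt2, Nron and Lncenc1 had no count in any library.

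Some genes in the set have another description in RefSeq. A RefSeq gene was matched to 66 of the 101, and 56 of these are listed as lncRNA, 7 as protein-coding, 2 as pseudogene and 1 as transcribed pseudogene. The most abundant of the 7 was 1810058I24Rik, which encodes a short mitochondrial peptide. It stood at 53.8, 61.3 and 53.0 TPM, with little spread. The others were Gm14461, Tmem250-ps, Gm26637, Gm46430, Gm5165 and Gm6712. The 2 pseudogenes were Gm10076 and Gm42418, described next.

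A sequence search showed that many of these transcripts are not unique. The leading transcript of each was compared with all GENCODE M21 transcripts of other genes, with matches of at least 50 bases at 90% identity or more. In 25 of the 101, at least 50% of the bases were matched by 1 other gene: 11 on the same strand, 8 on the opposite strand and 6 on both. These 25 made up 27.4% ± 8.65 of the TPM of the set (SD, n = 3). Gm10076 was the largest part of this, with a mean of 1299 of the 6253 TPM of the set. The 25 also hold 2900097C17Rik, of which 51.6% of bases match Gm7292, a gene at a mean of 0.033 TPM. In 5 of the 25 the matches reached 100 genes or more. The count had a posterior SD above 0, which marks reads shared between genes, in 36 of the 101, 35.6% beside 35% of all detected genes. Of the 25 it was 21, and of the other 76 it was 15. By strand, it was above 0 in all 8 matched on the opposite strand and in 9 of the 11 matched on the same strand. Of the 33 with no match it was above 0 in 1. Whether the counting used strand is not given in the sources used here and was not tested. Reads of a gene and of its opposite-strand partner may thus not have been told apart.

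Gm10076, the second most abundant lincRNA, is the plainest case. It lies at chr14:105681828-105682211, has 1 exon of 383 bases, and is listed by RefSeq as a pseudogene. All of its bases align with Rpl41 on chromosome 10, the gene of a very short ribosomal protein, with 2 differences over 383 bases. Both differences fall after the stop codon, so the coding stretch is letter for letter the same. It is shown because a read that lies within it carries no base that tells the genes apart:

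Rpl41 coding sequence with its stop codon, and Gm10076: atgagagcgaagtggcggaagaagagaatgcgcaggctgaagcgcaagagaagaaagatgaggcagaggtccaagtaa

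In the first quantification Gm10076 stood at 897, 1575 and 1425 TPM, and Rpl41 at 1311, 1436 and 1373 TPM. Gm10076 thus held 47.9% ± 6.39 of their joint TPM (SD, n = 3). In the second quantification Gm10076 stood at 3.48, 1.36 and 0.609 TPM and Rpl41 at 1143, 1385 and 1148 TPM, and the share was 0.152% ± 0.133. The counts of both genes together were closer: 7122, 11109 and 14030 in the first and 9947, 12123 and 15479 in the second quantification. Of these counts Gm10076 held 29.8%, 38.5% and 38.7% in the first quantification, so the near-even split was in TPM and not in counts.

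Gm26825 shows the same on the opposite strand. It lies on chromosome 5 and all of its 2026 bases match the opposite strand of Hspa8, a heat shock protein gene on chromosome 9. The longest single match had 8 differences over 1940 bases, an identity of 99.6%. On the same strand, 81.2% of the bases of Gm26825 match the pseudogene Gm37348, which stood at 0 TPM. Bases 115 to 174 of the Hspa8 coding sequence and bases 1853 to 1912 of the Gm26825 transcript, each read from its own strand, are reverse complements:

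Hspa8, bases 115 to 174 of the coding sequence: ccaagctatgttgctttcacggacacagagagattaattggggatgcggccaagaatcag

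Gm26825, bases 1853 to 1912: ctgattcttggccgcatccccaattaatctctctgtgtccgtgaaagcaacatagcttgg

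Gm26825 stood at 23.6, 22.2 and 13.6 TPM in the first and 0.644, 0.144 and 0 TPM in the second quantification. Hspa8 stood at 1760.1, 2281 and 1718 TPM, so Gm26825 was 1.04% ± 0.279 of it (SD, n = 3). Gm42418 lies inside the ribosomal RNA gene CT010467.1 on the opposite strand, and all 1831 bases match it. Gm42418 stood at 33.9, 37.5 and 43.2 TPM beside 26772, 17106 and 64239 TPM for CT010467.1, or 0.138% ± 0.0765 of it, and both were highest in replicate 3. Unlike Gm26825, Gm42418 kept its level in the second quantification, at 31.9, 41.8 and 43.0 TPM.

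Gm36161, the fourth most abundant, is matched over its whole length by Gm21188, but less closely than Gm10076 by Rpl41. Identity in the longest match was 95.7%, beside 99.5% for Gm10076 and Rpl41. On the same strand, matches of Gm36161 reached 251 genes. For Gm36161 and Gm21188 the quantifications gave near-equal shares. Gm36161 stood at 126, 136 and 129.7 TPM and held 53.6% ± 1.80 of their joint TPM in the first and 51.2% ± 1.96 in the second quantification (SD, n = 3). All bases of Gm12840, on chromosome 4, match the opposite strand of Gm26809, on chromosome 6. Gm12840 stood at 50.2, 30.2 and 27.3 TPM and, in the second quantification, at 118, 76.7 and 71.2 TPM. Gm26809 stood at 25.9, 16.4 and 19.8 TPM, and at 352, 348 and 296 TPM in the second. Its estimated counts there were 29459, 25452 and 33099, against 1222, 1040.1 and 1714 expected counts in the first.

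Across the set, the members that differed between quantifications were mostly those with shared sequence. More than 2-fold in the same direction in all 3 libraries was the criterion, on log2(TPM + 0.1). By it 7 of 101 were higher in the first quantification, 6.93% beside 2.28% of all detected genes. Lower in the first were 11 of 101, 10.9% beside 0.585% of all detected genes. All 7 of the higher group, and 6 of the 11 lower, were among the 25 with at least 50% of bases matched elsewhere. Of those 25, 13 differed, and of the other 76, 5 did. The higher group was Gm10076, Gm26825, Gm49207, Gm26527, Gm26649, Gm45733 and Gm26669. Gm49207 and Gm26527 were at 0 TPM in the second quantification in all 3 libraries. The median difference over all detected genes was 0.23 log2 units and over the set -0.07, so the first quantification read slightly higher for genes in general.

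**Figure D2:**
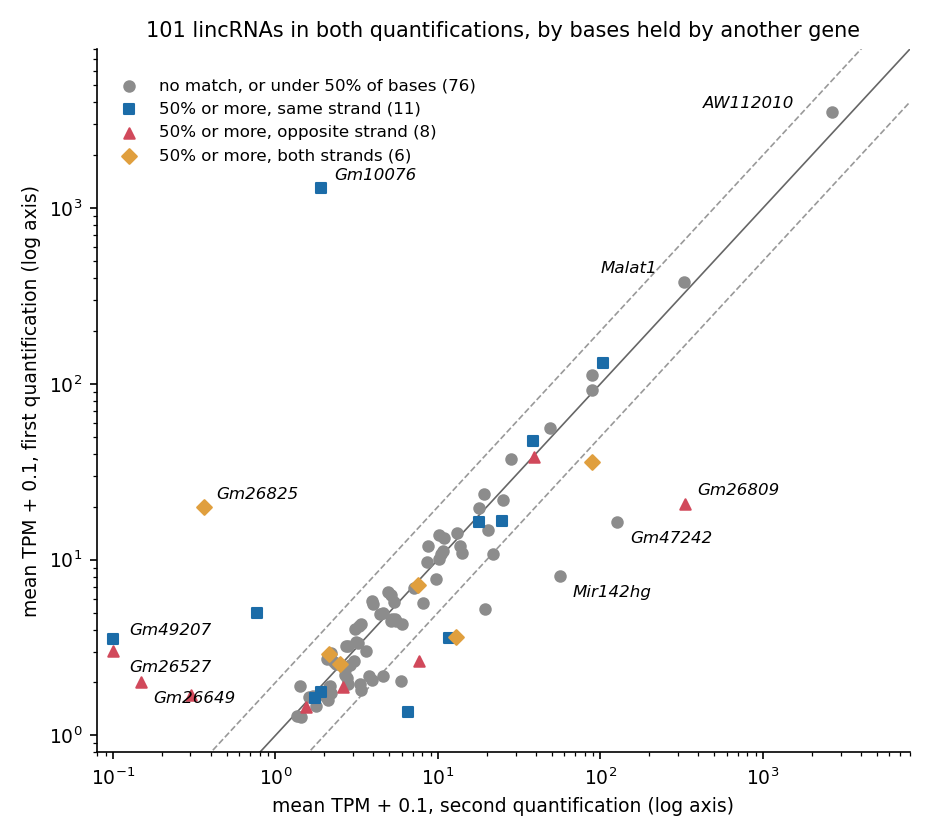
Mean TPM + 0.1 of the 101 lincRNAs in the second (horizontal) and first (vertical) quantification, both on log axes, with equal values on the solid line and 2-fold differences on the dashed lines. Marker shapes show how much of the leading transcript is matched by 1 other gene, and the points far above the line are all of that kind.

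Of the 7, Gm26527, Gm26649 and Gm26669 lie opposite and within the genes they match. Gm26527 lies opposite Arsb, a lysosomal sulfatase, and stood at 1.94, 3.93 and 2.91 TPM, 47.4% ± 11.3 of Arsb. Gm26649 lies opposite the transcription factor gene Klf7 and stood at 2.54, 1.59 and 1.58 TPM, 38.8% ± 6.74 of Klf7. Gm26669 lies opposite Zfp36l1, which encodes an mRNA decay factor, and stood at 1.36, 2.17 and 1.25 TPM, 27.8% ± 11.6 of Zfp36l1. Gm26527 and Arsb were both highest in replicate 2, and Gm26649 and Klf7 both in replicate 1. Gm26669 was highest in replicate 2 and Zfp36l1 in replicate 1. Gm45733 (6.27, 4.55 and 3.77 TPM) matches Baz2a over 93.8% of its bases on the same strand. Gm49207 (1.76, 6.58 and 1.92 TPM) matches Ahsa1, a cochaperone of Hsp90, over 96.1%.

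The 5 that differed without such a match were all lower in the first quantification, and their leading transcripts had 269, 382, 475, 528 and 961 bases. These were Mir142hg, Gm28347, Gm47242, Gm49662 and Lncpint. Gm47242 (chr19:12539588-12540823) stood at 13.6, 13.5 and 21.7 TPM from 52, 62 and 138 counts, and at 91.6, 148 and 141 TPM from 632, 955 and 1421 estimated counts in the second quantification. Gm28347 stood at 4.69, 2.97 and 7.67 TPM, and at 17.8, 11.1 and 29.2 TPM. The library order of Gm28347 was the same in both, while that of Gm47242 was not.

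Spread between libraries was wide in this set. The highest library was more than 2-fold above the lowest in 34 of 101, 33.7% beside 9.99% of all detected genes. Over 2 libraries the count was 14 without replicate 1, 10 without replicate 2 and 24 without replicate 3. A range over 2 libraries cannot exceed that over 3, so the count could only fall or stay. These counts are given without the share of all detected genes. Low counts raise the ratio of highest to lowest library, so genes were grouped by mean TPM. This does not match their counts, since a shorter transcript has fewer counts at the same TPM. Between 1 and 5 TPM, where 24 of the 34 lie, the share with such a range was 40.7% of 59 lincRNAs beside 19.3% of all 2450 genes. Between 5 and 20 TPM it was 32.1% of 28 lincRNAs beside 9.01% of all 3384 genes. At 20 TPM or more it was 7.14% of 14, a single gene, beside 5.25%. Median coefficients of variation were 30.3%, 28.1% and 20.1% for lincRNAs under 5, from 5 to 20 and from 20 TPM, beside 21.5%, 16.2% and 12.7% of all detected genes. Fewer than 10 counts in some library lay behind 9 of the 101, 8.91% beside 1.21% of all detected genes, and 26 of the other 92 still had a range above 2-fold. By a chi-square test on TMM-scaled counts, 63 of the 97 with a mean count of at least 10 differed between libraries by more than counting noise, 64.9% beside 70.9% of all 12404 genes tested and 76.9% of the detected genes among them. Over 2 libraries the number that differed was 57 without replicate 1, 35 without replicate 2 and 51 without replicate 3, given without the share of all genes. The test leaves out the error of dividing shared reads between genes. A posterior SD of the count above 0 was found in 36 of the 101, 35.6% beside 35% of all detected genes. The set was chosen on TPM in these libraries, so no p is given for a single gene.

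Replicate 2 was the usual low one. Of the 101, 51 were lowest there, 50.5% beside 31.4% of all detected genes. In replicate 1, 28 were lowest, 27.7% beside 41.8%, and in replicate 3, 22 were, 21.8% beside 26.8%. The highest library was replicate 1 for 47, 46.5% beside 30.6%, replicate 2 for 23, 22.8% beside 46.3%, and replicate 3 for 31, 30.7% beside 23.2%. A range above 2-fold with the lowest value in replicate 2 was found in 22, 21.8% beside 3.34% of all detected genes. With the lowest value in replicate 1 it was found in 8, 7.92% beside 4.35%, and in replicate 3 in 4, 3.96% beside 2.3%. With the highest value in replicate 1 it was found in 20, 19.8% beside 3.36%, in replicate 2 in 6, 5.94% beside 5.1%, and in replicate 3 in 8, 7.92% beside 1.53%. Genes with such a range were thus mostly low in replicate 2 and high in replicate 1. Scaling moves these shares for genes in general, so 3 scales were compared. With TMM-scaled counts 60 of 101, 59.4%, were lowest in replicate 2, beside 39.7% of all detected genes. In the second quantification 47 of 101, 46.5%, were, beside 15.8%. On each scale the set exceeded all detected genes in this share. Without the 25 lincRNAs of shared sequence, 44 of the other 76, 57.9%, were lowest in replicate 2. The summed neutrophil, platelet, dendritic cell and osteoclast markers and the TMM factor (0.963, 1.06 and 0.976) were highest in replicate 2. The summed macrophage markers, mostly Lyz2, were lowest there. The part of any of these in this pattern was not tested.

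**Figure D3:**
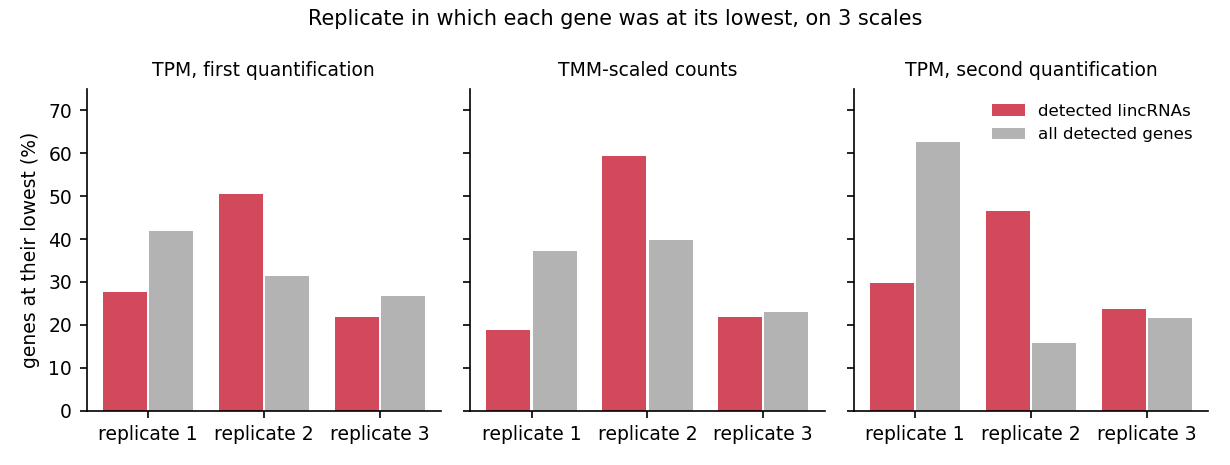
Percent of the 101 lincRNAs (red) and of all detected genes (grey) that were at their lowest in each replicate, on TPM of the first quantification, TMM-scaled counts and TPM of the second quantification. Replicate 2 held 50.5%, 59.4% and 46.5% of the lincRNAs, above the grey bar in each panel.

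Among the 10 with the largest range, 6 were lowest in replicate 2. Of the 992 detected genes with a range above 2-fold, 332 were lowest there. Gm26797 (chr9:122295869-122310928), near the anoctamin gene Ano10, stood at 6.18, 1.47 and 5.76 TPM from 227, 83 and 411 counts. Gm42047 (chr8:121833247-121841178) stood at 22.5, 6.04 and 20.2 TPM from 1552, 575 and 2594 counts, and the second quantification gave 22.3, 8.44 and 22.4 TPM. In both, replicates 1 and 3 lay close together and replicate 2 apart. 5031425E22Rik, which starts 172 bases from the start of the chromatin regulator gene Kmt2e on the other strand, stood at 6.38, 2.03 and 5.03 TPM, likewise low in replicate 2. AU022793 stood at 3.45, 2.26 and 6.83 TPM and Gm43351 at 7.1, 5.91 and 16.95 TPM, both mainly high in replicate 3. Gm49207 and Gm13431 (1.04, 3.86 and 2.39 TPM) were high in replicate 2 but rest on few counts, from 1.71 to 6.49 for Gm49207 and from 4 to 16 for Gm13431. Gm26880 stood at 4.02, 2.43 and 1.2 TPM and Gm36738 at 3.16, 5.46 and 8.54 TPM, so the order of libraries differed among the 10.

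**Figure D4:**
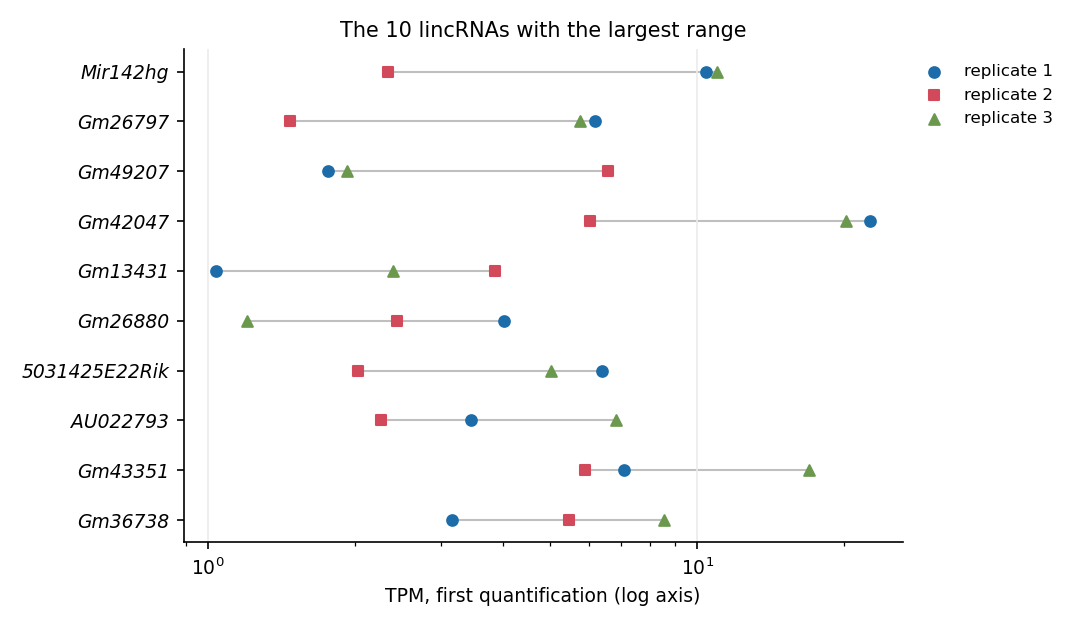
TPM in each library for the 10 lincRNAs with the largest ratio of highest to lowest library, first quantification, on a log axis. Replicate 2 (squares) is the lowest point for Mir142hg, Gm26797, Gm42047, 5031425E22Rik, AU022793 and Gm43351, and the highest for Gm49207 and Gm13431.

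The genomic setting of the set differed from that of lincRNA genes under the minimum, a measure the choice did not use directly. The nearest protein-coding gene lay at a median distance of 11663 bases from the 101 and of 44976 bases from the other 5743. It overlapped 17 of the 101, 16.8%, beside 8.31% of the others. It lay within 5000 bases of 45, 44.6%, beside 21.4%. That nearest gene was itself detected for 79 of the 101, 78.2%, beside 39.5%. These shares are given without a test, since neighbouring genes share a locus and reads of an overlapping gene can be counted to a lincRNA. Levels did not track each other closely: across the 101, log2 mean TPM of lincRNA and neighbour had Pearson r -0.16 and Spearman rho -0.13, over genes of the same 3 libraries.

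**Figure D5:**
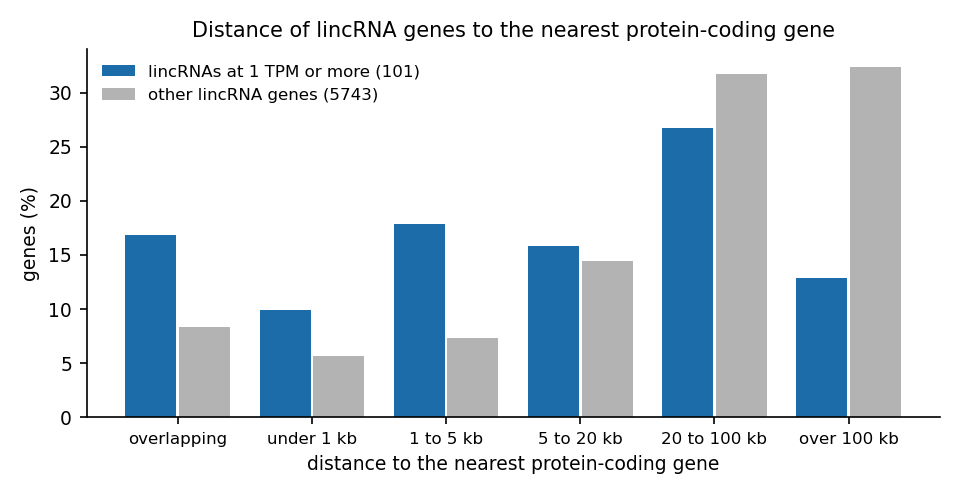
Percent of lincRNA genes by distance to the nearest protein-coding gene, for the 101 detected in all libraries (blue) and the other 5743 (grey). The blue bars are taller in the bins up to 20 kb, and 12.9% of the 101 lie over 100 kb away beside 32.4% of the others.

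Some neighbours were far more abundant than the lincRNA beside them. Of the 79 lincRNAs whose nearest protein-coding gene was detected, 64 were under it in all 3 libraries. The median of mean TPM was 4.18 over the 101 and 14.9 over detected protein-coding genes, so a lincRNA under its neighbour is the usual case. In 17 the neighbour had a mean of at least 100 TPM. All 17 were under it in every library, which this choice of neighbours made nearly certain. Of the 17, 10 were lowest in replicate 2, 4 in replicate 1 and 3 in replicate 3, beside 31.4%, 41.8% and 26.8% of all detected genes. A set this small says little about the order. The most abundant neighbour was Acod1, which makes the macrophage metabolite itaconate and stood at 3264 ± 558 TPM (SD, n = 3). Gm34643, 22520 bases from it, stood at 8.03, 4.13 and 4.82 TPM, lowest in replicate 2. Gm26522 overlaps Ctsc, a lysosomal protease gene at 974 ± 15.4 TPM, and stood at 1.11, 1.14 and 1.84 TPM, lowest in replicate 1. Gm36738, whose values are given above, lies 1628 bases from Rac2, a GTPase gene of blood cells at 504 ± 91.3 TPM, and was also lowest in replicate 1. Back-to-back starts, on opposite strands and at most 1000 bases apart, were found for 8 of the 101, 7.92% beside 4.2% of the other lincRNA genes. Among them were Gm7160, 124 bases from Zcchc2, 2010110E17Rik, 430 bases from N4bp1, Gm17705, 222 bases from Prrc2a, and Gm17586, 168 bases from Mafg. Of the 8, 4 were lowest in replicate 2, 3 in replicate 3 and 1 in replicate 1, too few to set beside the shares of all detected genes. Gm7160 stood at 11.5, 9.08 and 12.8 TPM and 2010110E17Rik at 11.4, 4.81 and 6.67 TPM.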

How the data were processed

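The authors deposited 2 quantifications of each library on mm10 with GENCODE M21, per the file headers and notes. In the first, made by the authors from a transcriptome alignment, gene and transcript tables give expected counts, which a model assigned and no step scaled. The same tables give TPM, computed by the authors per transcript length. Per the file headers they also give each transcript's percent of gene TPM and the posterior SD of the count. In the second, the authors made estimated counts and TPM per transcript from the reads without an alignment file, and these were summed here per gene. No source used here names the programs. Members, lists and the rule for named genes (20 highest levels, 10 largest ranges, 10 largest differences between quantifications, listed genes, 3 nearest the minimum on each side, 5 changing and 5 keeping their leading transcript) were chosen with earlier results of these data known. Neighbours and other examples were chosen after their values were seen. Variation was tested by chi-square on rounded counts scaled by TMM (edgeR 4.0.16), adjusted by Benjamini-Hochberg at 0.05 over every gene averaging 10 counts or more. DESeq2 1.42.0 gave alternative scaling. Shared sequence was searched with blastn 2.17.0+, and RefSeq sequences are of GRCm38.p6.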

Additional observations from a re-analysis of the deposited data

How the results depend on the processing

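The number of lincRNAs depends on the minimum: 157 at 0.5 TPM, 62 at 2 TPM, 34 at 5 TPM, and 195 at 1 TPM in the second quantification, of which 92 (47.2% of the 195 and 91.1% of the 101) are in the set. Leaving out 1 replicate gave 106 to 119. Their share of library TPM was 0.374% of expected counts, 0.454% in the second quantification, 0.275% without AW112010 and 0.599% to 0.673% over 2 replicates. Their median was 2.18 as TMM-scaled CPM, and 3.79 to 4.11 TPM over 2 replicates. With a 3-fold criterion 7 were lower in the first quantification. Over 2 replicates, 35 to 57 varied beyond counting noise, 10 to 24 had a range above 2-fold, 7 were higher and 11 to 13 lower in the first quantification, and 38 to 39 kept their leading transcript. Chosen after seeing the data, leaving out the 25 lincRNAs of shared sequence left 0 higher and 5 lower in the first quantification and a share of 0.459%. The other alternatives, also the one without lincRNAs under 10 counts, likewise chosen after seeing the data, moved these counts by at most 1.5 times. For single named genes, the second quantification moved the mean TPM of 28 of 48 by more than 1 SD. Leaving out 1 replicate moved 0 of 144 values by that much, but this could not come out otherwise. With 3 libraries, a mean over 2 of them always lies within 1 SD of the mean over all 3. For genes under 50 counts, counting error limits the order of the libraries. No paired analysis was possible because the 3 libraries form 1 group.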

Other observations

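A further 18 detected genes have lincRNA transcripts beside transcripts of another type and so fall outside the set. The most abundant was Gm20559, at 340.1, 348 and 362 TPM, followed by AI662270, at 132, 82.5 and 108 TPM. Gas5, a snoRNA host, stood at 41.0, 26.9 and 38.4 TPM, and Dleu2, the precursor of miR-15a and miR-16, at 29.7, 15.8 and 26.2 TPM. Mir99ahg stood at 10.5, 2.32 and 3.59 TPM, high in replicate 1. Of the 18, 12 were lowest in replicate 2, 4 in replicate 1 and 2 in replicate 3. Of all detected genes 31.4%, 41.8% and 26.8% were lowest in these replicates.

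A further 29 lincRNA genes reached the minimum in 2 libraries and missed it in the other. The low library was replicate 2 for 18 of them, replicate 1 for 6 and replicate 3 for 5. These are 62.1%, 20.7% and 17.2%, beside 37.9%, 37.5% and 24.6% of all 544 genes that missed the minimum in a single library. Gm26778 stood at 0, 10.2 and 4.53 TPM, from 842.4 and 511.04 expected counts in replicates 2 and 3 against none in replicate 1. It has the most counts of the 29 behind such a gap, but they are not whole numbers. Such counts come from reads that the model divided between transcripts or genes. The part of this in the gap was not tested.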
